A study of Mus musculus with 8 samples.

Results

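Most mouse genes whose symbols begin with Zfp encode proteins with zinc fingers of the C2H2 type, small zinc-bound loops that can read DNA, and these genes were taken here as 1 group by name. Of 313 such genes with any read in the RNA-seq libraries of WT and TRIM28-deficient Th17 cells, 268 had a sum of at least 10 reads and were kept, out of 10881 genes of any kind at that depth and 13704 genes with a read. The mRNA decay genes Zfp36, Zfp36l1, Zfp36l2 and Zfp36l3, whose fingers are of another type, and genes named Zfpm or Zfpl were left out. Beyond their names, the members were chosen by the sum of their reads, not by the difference between genotypes. The group itself was chosen with earlier results of these data known.

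Naive CD4+ T cells of C57BL/6 mice, either wild type or TRIM28fl/fl x CD4cre, were cultured under Th17 conditions with 0.5 ng/ml TGFβ and 20 ng/ml IL-6 for 3 days and stimulated again through anti-CD3 before the RNA was taken. Cre driven by Cd4 acts from thymocyte development on, so the KO T cells had matured and been cultured without TRIM28. Sequencing covered 1 library per genotype (WT and KO below), and the number of mice behind each is not given in the sources used here. No difference given here has a replicate check, and a change in the mix of cells cannot be told apart from a change of RNA per cell.

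Many C2H2 zinc finger proteins of mammals carry a KRAB domain at their N-terminal side, and its A box is the surface that binds TRIM28. Through that contact TRIM28 is brought to the DNA that the fingers recognize, where it gathers the histone methyltransferase SETDB1, HP1 proteins and the NuRD deacetylase complex to silence chromatin. KRAB zinc finger genes stand in clusters on a few mouse chromosomes, and much of what they bind is derived from endogenous retroviruses. Zinc finger proteins without a KRAB box use other partners, or none known, and include activators, architectural factors and RNA-binding proteins.

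A KRAB A box was found in 146 of the 268 Zfp genes and in 54.9% of those with a RefSeq protein, against 1.80% of all genes tested. The box was scored as 13 conserved positions in a stretch of 28 codons, with at least 10 of them kept. All 13 positions were kept in 78 genes, 12 in 48, 11 in 15 and 10 in 5, and no Zfp gene without the box reached more than 8. The score does not tell a diverged box from an absent one, so genes given here as without a KRAB box may hold a diverged one. No KRAB box was found in 120 genes, of which 98 had at least 2 fingers and 11 had none by the pattern searched. The other 2 genes had no protein in RefSeq. KRAB proteins held between 2 and 33 fingers with a median of 12, and those without a box a median of 6. As recruiters of TRIM28 the genes were thus judged by predicted sequence alone, which gave the box for some and not for the others, and binding to TRIM28 was not measured.

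The predicted A box is shown for 3 KRAB genes that were lower in the KO library (Zfp369, Zfp58 and Zfp677), for Zfp809, which silences murine leukemia retroviruses, and for Zfp445, which protects imprinted DNA. The DNA is from the RefSeq annotation of GRCm38.p6, written 5′ to 3′ on the coding strand, 84 bases each, and capitals mark the codons that kept a conserved position. Zfp369 lies at chr13:65295618-65295701 (+), Zfp58 at chr13:67494628-67494711 (-), Zfp677 at chr17:21393194-21393277 (+), Zfp809 at chr9:22235038-22235121 (+) and Zfp445 at chr9:122856724-122856807 (-), each inside coding exon sequence.
Zfp369: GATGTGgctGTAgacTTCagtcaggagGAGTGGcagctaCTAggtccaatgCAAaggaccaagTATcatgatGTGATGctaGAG
Zfp58: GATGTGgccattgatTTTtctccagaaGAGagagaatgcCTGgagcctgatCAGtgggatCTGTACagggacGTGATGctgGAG
Zfp677: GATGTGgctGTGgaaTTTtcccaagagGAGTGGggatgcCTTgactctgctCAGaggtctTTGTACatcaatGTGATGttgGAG
Zfp809: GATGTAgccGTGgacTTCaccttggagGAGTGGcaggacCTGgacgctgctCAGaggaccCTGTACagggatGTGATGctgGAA
Zfp445: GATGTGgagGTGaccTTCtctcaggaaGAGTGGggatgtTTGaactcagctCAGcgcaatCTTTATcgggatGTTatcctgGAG
Zfp677 and Zfp809 kept all 13 positions, Zfp369 and Zfp445 kept 12 and Zfp58 kept 11. Between any pair of these stretches, 47 to 61 of the 84 bases were identical.

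The libraries were shallow and of near equal depth, with 13078 genes detected in WT, where 6.65 reads make 1 CPM (the count scaled to a library of fixed size), and 12754 in KO, where 6.19 reads do. Trim28 itself had 4485 reads in WT and 180 in KO, which put its log2 fold change (KO/WT) at -4.53 (95% interval -4.76 to -4.32), as its label says. A gene was called lower or higher when its reads differed between the libraries at an adjusted p under 0.05 in an exact binomial test and its level by at least 2-fold. Such a test compares the libraries and not the genotypes, and all intervals cover counting error only. All 6 T cell markers were tested and none was called, with a summed level of 3716 CPM in WT and 3252 CPM in KO. Of 6 Th17 markers, 3 fell (Il17a, Il17f and Il21), and the list summed to 1671 and 528 CPM. CD8 T cell markers summed to 53 and 29 reads and B cell markers to 83 and 44 reads, with Cd79b lower, and all 3 NK cell and 5 red cell markers were at 0. Of 8 myeloid markers Lyz2, Csf1r and Adgre1 were at 0 while Clec12a had 0 reads in WT and 75 in KO, in a list of 81.4 and 121 CPM. Most of that sum came from Cst3 alone, with 540 reads (81.2 CPM) in WT and 664 (107 CPM) in KO. The part of these marker differences in the results on Zfp genes was not tested.

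Zfp genes were modestly expressed. Their median was 147.5 reads over both libraries against 359 for all genes tested, and per length of transcript it was 3.30 RPKM (CPM per kilobase of the longest transcript) in WT and 2.96 RPKM in KO, against 8.64 and 8.35 RPKM. KRAB genes had a median of 102.5 reads (2.51 RPKM in WT and 1.99 in KO) and genes without the box 328.5 reads (7.29 and 6.74 RPKM). Together the 268 genes took 49975 reads or 0.751% of the WT library and 40288 reads or 0.651% of the KO library. KRAB genes summed to 2300 CPM in WT and 2059 CPM in KO, and genes without the box to 5204 and 4445 CPM. The sums of both classes were thus smaller in the KO library, in which most of the family's reads still came from genes without a KRAB box.

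Loss of Trim28 reads was accompanied by few large differences among Zfp genes. Of the 268, 12 (4.48%) were called lower and 3 (1.12%) higher in KO, against 5.53% and 2.57% of all genes tested. By size alone, 21 (7.84%) were at least 2-fold lower and 6 (2.24%) at least 2-fold higher, against 7.94% and 3.75% of all genes. The lower calls of the family were thus near the background, and 241 of its 268 genes (89.9%, against 88.3% of all genes) lay within 2-fold of no change, 196 of them within 1.5-fold. KRAB genes gave 8 lower and 2 higher calls of 146, and genes without the box 3 and 1 of 120. The remaining lower call was Zfp862-ps, a pseudogene.

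The smaller differences leaned to one side. The median log2 fold change was -0.18 for Zfp genes and -0.02 for all genes tested, with the middle of the group between -0.52 and 0.10 (quartiles) against -0.41 and 0.30. A value below 0 was found for 178 of 268 Zfp genes (66.4%), against 51.4% of all genes. The counting interval lay wholly below 0 for 74 Zfp genes (27.6%, against 24.998% of all genes). It lay wholly above 0 for 23 (8.58%, against 23.5% of all genes). The share of negative values past counting error was thus near the background. Positive values past counting error were rarer in the family than in the background. Zfp genes also had fewer reads than all genes tested (medians of 147.5 and 359), and these shares were not matched for reads. Genes are not replicates, so no test was made over them. KRAB genes and genes without the box had medians of -0.20 and -0.16, with 66.4% and 66.7% of genes below 0. Their intervals lay wholly below 0 in 22.6% of KRAB genes and 33.3% of genes without the box and wholly above 0 in 5.48% and 12.5%, and the latter genes also had more reads. The difference between the classes was not tested. Scaling by TMM or by DESeq2's size factors in place of library totals left the median of the Zfp genes at -0.16 with that of all genes at 0.00.

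**Figure D1:**
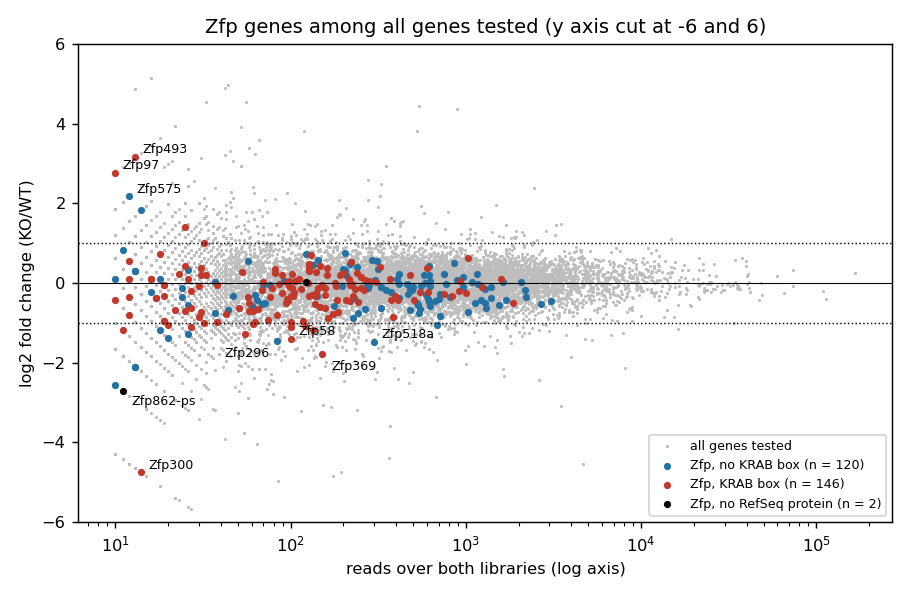
Each point is a gene, with the reads over both libraries on a log x axis and the log2 fold change (KO/WT, 0.5 added to each count) on the y axis, Zfp genes in red (KRAB box), blue (no KRAB box) or black (no RefSeq protein) and the other tested genes in gray, with dotted lines at 2-fold. Zfp genes with 200 reads or more sit inside the dotted lines with 2 exceptions, and the 3 called higher have 13 reads or fewer.

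Near the threshold on reads, genes had differences of either sign. The 7 genes just inside it, with 10 or 11 reads, held 43 WT and 30 KO reads, and the 5 just outside, with 8 or 9 reads, held 22 and 20. All 45 genes below the threshold summed to 107 and 76 reads, with 23 higher in WT and 11 in KO. Among Zfp genes with 10 to 49 reads, 2 (3.17%) were called lower and 3 (4.76%) higher of 63, against 10.3% and 5.07% of all genes at that depth, and such genes could pass the threshold through the reads of the library where they were higher. With at least 50 but under 200 reads, 8 of 90 (8.89%) were lower and 0 higher, against 9.70% and 4.39% of all genes at that depth. With 200 reads or more, 2 of 115 (1.74%) were lower and 0 higher, against 2.64% and 1.17%, and the median was -0.15 against 0.03 for the 6602 genes of any kind. The lean below 0 was thus also seen among the genes with the most reads.

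Transcript length moved with the fold changes in these libraries and has to be read beside the family's values. Set against the length of the longest transcript, the log2 fold change had a Spearman's rho of -0.37 across 10792 genes and -0.22 across the 268 Zfp genes, as a description across genes that share both libraries. Zfp transcripts were a little longer than the rest (medians of 3667 and 3317.5 bases). With genes divided by length into 3 classes of equal size, short, middle and long, the median log2 fold change was -0.06, -0.15 and -0.37 for Zfp genes and 0.20, -0.01 and -0.28 for all genes, so that the family lay below all genes in each. With fold changes centred on the trend with length, the median was -0.14 for Zfp genes, -0.17 for KRAB genes and -0.09 for genes without the box, against 0.00 for all genes, and 61.9% of Zfp genes were below 0 against 49.7% of all. The GC content of transcripts, with a median of 41.7% in KRAB genes, 44.5% in Zfp genes and 49.8% in all genes, also differed. After centring on it the median was -0.11 for Zfp genes, -0.10 for KRAB genes and -0.14 for genes without the box, against 0.01 for all genes, and 58.2% of Zfp genes were below 0 against 49.1%. The number of fingers had a rho of -0.12 with the log2 fold change over 266 Zfp genes.

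**Figure D2:**
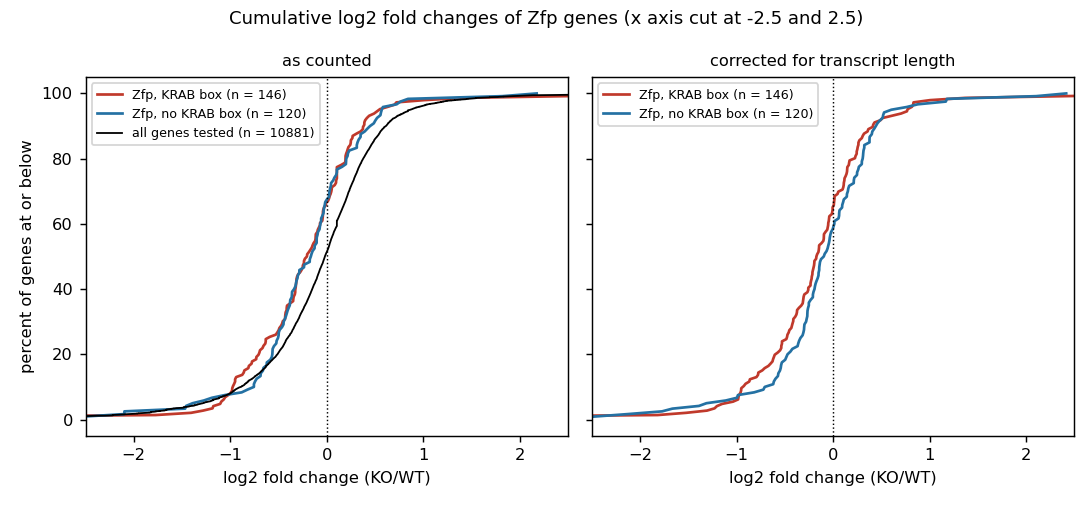
Percent of genes at or below each log2 fold change (KO/WT), for 146 KRAB Zfp genes (red), 120 Zfp genes without the box (blue) and, on the left, all 10881 genes tested (black), as counted and after correction for transcript length. Both Zfp curves lie to the left of the black curve around 0, with medians of -0.20 and -0.16 against -0.02, and stay left of 0 after the correction, at -0.17 and -0.09.

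Zinc finger genes outside the Zfp symbols gave the nearest comparison. The 36 other KRAB zinc finger genes had a median log2 fold change of -0.13, with 1 called lower (Gm13051, 10 and 1 reads) and 0 higher. These calls were 2.78% and 0%, against 5.53% and 2.57% of all genes. Of the 36, 52.8% were below 0, near the 51.4% of all genes. By size alone, 3 (8.33%, against 3.75% of all genes) were at least 2-fold higher and 1 (2.78%, against 7.94%) lower. The 113 C2H2 genes with neither a Zfp name nor a KRAB box had a median of -0.31, with 78.8% below 0, 10 called lower (8.85%, against 5.53% of all genes) and 1 higher (0.885%, against 2.57%), and longer transcripts (median 4944 bases). After the length correction the medians of the other KRAB genes and of these C2H2 genes were -0.11 and -0.10. The shares below 0 were then 55.6% and 63.7%, against 49.7% of all genes. As counted, the share below 0 was thus above the background in the C2H2 genes without a KRAB box and near it in the other KRAB genes. With the correction that contrast was smaller, and neither group was tested against the Zfp genes.

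Among KRAB genes the best supported fall was that of Zfp369, also known as Nrif2, a relative of the neurotrophin receptor interacting factor. It lies on chromosome 13 of GRCm38 from 65277228 to 65304222 and had 119 reads in WT against 32 in KO, or -1.77 on the log2 scale (-2.40 to -1.22). Among the KRAB genes called lower, it and Zfp300 were the ones that kept the call when edgeR's exact test was given an assumed variation of 0.2 between replicate cultures. Neither did at 0.4.

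Zfp58, a gene of the KRAB cluster on chromosome 13, had 75 reads in WT against 26 in KO (log2 fold change -1.41, from -2.13 to -0.76). Of the 50-base words of its longest transcript, 50.2% also occur in another gene, most in Gm26965. The counts are of reads assigned uniquely, so reads from such words may be missing from its count. Zfp677, in the cluster on chromosome 17 and with the A box kept in full, had 96 and 39 reads (-1.18, from -1.77 to -0.64). Zfp9 had 40 and 15 reads (-1.28, from -2.27 to -0.42). The last 2 transcripts share almost no words with other genes, and both genes stayed called with the length correction, at -1.23 and -1.20.

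Zfp719 with 70 and 30 reads (log2 fold change -1.10), Zfp607 with 84 and 37 (-1.07) and Zfp955b with 42 and 19 (-1.02) were called lower close to the 2-fold limit. After the length correction they were at -0.96, -0.98 and -0.73 and no longer called. The word overlap of Zfp955b with its neighbour Zfp955a was 31.7%. Of all KRAB genes called lower, none had more than 119 reads in WT.

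Zfp300, an X-linked KRAB gene named here after its values were seen, had 14 reads in WT and 0 in KO. Against a floor of 3 reads in the KO library (0.485 CPM), its WT level of 2.11 CPM was at least 4.34-fold lower in KO, leaving out the counting error of the WT reads, with which the log2 fold change was -1.63 or below. It was the sole Zfp gene kept that was at 0 in a library. Zfp862-ps, also named after the fact, had 10 and 1 reads, with an interval of the log2 fold change from -8.66 to -0.40.

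Genes without a KRAB box gave 3 lower calls, of which Zfp518a and Zfp507 had more reads than any KRAB gene called lower. Zfp518a, on chromosome 19 from 40894031 to 40917947, had 224 reads in WT against 75 in KO (log2 fold change -1.47, from -1.87 to -1.09). Zfp507 had 472 and 211 reads, the most of any called Zfp gene (-1.06, from -1.30 to -0.82). Zfp296, a cofactor known from reprogramming to pluripotency, had 63 and 21 reads (-1.46, from -2.27 to -0.75). Zfp518a and Zfp296 stayed called with the length correction (-1.11 and -1.67) and Zfp507, whose longest transcript has 6693 bases, did not (-0.71). Zfp507 overlaps exons of E130304I02Rik, and the strand used in counting is not stated.

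**Figure D3:**
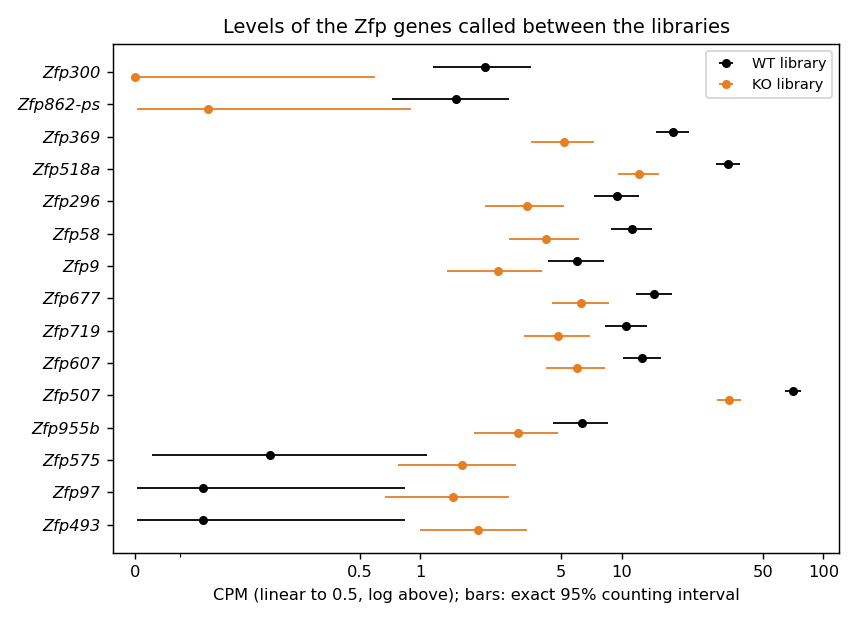
Level in CPM (x axis, linear to 0.5 and log above) of the 15 called Zfp genes in the WT library (black) and the KO library (orange), with exact 95% counting intervals as bars. Zfp518a and Zfp507 are the most expressed, at 33.7 and 71.0 CPM in WT and 12.1 and 34.1 CPM in KO, and the 3 genes called higher stay below 2 CPM in KO.

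The 3 genes called higher all rested on few reads and are named after their values were seen. Zfp493, in the chromosome 13 cluster, had 1 read in WT and 12 in KO, with an interval of the log2 fold change from 0.93 to 9.11. Zfp97 had 1 and 9 reads, and 81.3% of its transcript's words are shared with other genes, most with Zfp960. Zfp575, without a KRAB box, had 2 and 10 reads and overlaps Ethe1. With the length correction Zfp493 and Zfp97 stayed called and Zfp575 did not. Zfp473 (48 and 74 reads, corrected to 1.18) and Zfp704 (3 and 11 reads, corrected to 2.41) were then called higher. Both lack a KRAB box and are also named after their values were seen. With at least 10 reads asked of each library no Zfp gene was called higher, beside 184 of 9447 genes of any kind. Among Zfp genes with 200 reads or more, the highest values were those of Zfp524 (79 and 125 reads, log2 fold change 0.76) and of the KRAB gene Zfp53 (423 and 610 reads, 0.63, from 0.45 to 0.82), and neither was called.

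The 8 Zfp genes with the most reads lay within 2-fold of no change. Zfp106, an RNA-binding protein needed by motor neurons, had 1823 reads in WT and 1244 in KO (log2 fold change -0.45), Zfp592 had 1637 and 1062 (-0.52) and Zfp609 had 1277 and 939 (-0.34). The intervals of these 3 were below 0. Zfp598, the ubiquitin ligase that marks collided ribosomes, had 1183 and 981 reads (-0.17), Zfp871, the KRAB gene with the most reads, 1126 and 741 (-0.50), and Zfp335, a regulator of T cell maturation in the thymus, 1004 and 696 (-0.42). Zfp706 with 1068 and 1010 reads (0.02) and Zfp740 with 836 and 796 (0.03) had intervals that include 0. After the length correction Zfp106, Zfp609 and Zfp871 had values of 0.00, 0.06 and 0.01, so that the direction of these long transcripts depends on that correction.

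KRAB genes with a known role in silencing were not called. Zfp445, which guards imprints together with Zfp57, had 801 and 796 reads (log2 fold change 0.10, from -0.05 to 0.24). Zfp809 had 28 and 15 reads (-0.77, from -1.81 to 0.16), too few to separate a 2-fold difference from none. Zfp932, a repressor of endogenous retroviruses that shares 45.2% of its words with other genes, most with Gm15446, had 127 and 106 reads (-0.16). Zfp90 had 66 and 82 reads (0.42) and Zfp30 7 and 11 (0.72), both with intervals that include 0. Of the zinc finger genes known from embryos and stem cells, Zfp57, Zfp568 and Zfp42 were listed in neither library, where 3 reads are 0.451 CPM in WT and 0.485 CPM in KO. Likewise Zfp683 (Hobit, of resident T cells), Zfp638, Zfp708, Zfp423 and Zfp521 were listed in neither, and Zfp467 had 2 and 1 reads. A gene that is not listed was not thereby shown to be unexpressed, and the part of counting and annotation in these absences was not tested.

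Genes without a KRAB box and with a known function gave values of both signs, none called. Zfp91, a ubiquitin ligase of the NF-κB pathway, had 944 and 595 reads (log2 fold change -0.56), Zfp292 777 and 515 (-0.49) and Zfp318, which sets IgD splicing in B cells, 329 and 207 (-0.56). Zfp148, a factor of GC-rich promoters, had 717 and 500 reads (-0.42), Zfp131 358 and 251 (-0.41) and Zfp263 468 and 246 (-0.82, from -1.05 to -0.60). All 6 had intervals below 0, although the length correction moved Zfp292 to -0.005, Zfp318 to 0.01 and Zfp148 to 0.06. Zfp143, which binds promoters and chromatin loop ends, had 203 and 202 reads (0.10, from -0.19 to 0.39). Zfp207, a kinetochore and splicing factor, had 270 and 222 (-0.18), Zfp384 210 and 166 (-0.23) and Zfp326 59 and 44 (-0.31). These 4 had intervals that include 0, as did Zfp281 with 24 and 13 reads (-0.76) and Zfp703 with 9 and 9 (0.10). Zfp217 had 19 and 7 reads (-1.27, from -2.83 to -0.02), past 2-fold in size but not called. Zfp608, tied like its relative Zfp609 to Rag gene control in thymocytes, had 60 and 83 reads (0.57, from 0.08 to 1.08).

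Zfp genes stand in clusters, and 69 of the 268 lie on chromosome 7, 37 on chromosome 17 and 27 on chromosome 13. Runs of at least 4 members with under 500 kb from each to the next numbered 17 and held 134 Zfp genes, 104 of them with a KRAB box. The largest, chr13:67038594-67827000, holds 20 genes that all have the box. In it 15 values were below 0 and the median log2 fold change was -0.31, with Zfp58 called lower and Zfp493 higher, and after the length correction the median was -0.28. The cluster as a whole thus had a small negative median beside calls of opposite sign. The runs on chromosome 17 held 16 and 12 genes with medians of -0.20 and -0.07 and 1 lower call each.

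The run with the lowest median, -0.52, was chr7:6131489-6396637, with no gene called. Zfp787 had 177 reads in WT and 153 in KO, Zfp444 42 and 27, Zfp667 59 and 68, Zfp583 14 and 6 and Zfp28 91 and 56. Only the interval of Zfp28 excluded 0 (log2 fold change -0.59, from -1.10 to -0.10), so the median rests on small counts. The run with the highest median, 0.43, was chr7:4915181-5053723 on the same chromosome, where none of the 6 genes has a KRAB box and none was called. Zfp628 had 451 and 443 reads, Zfp579 274 and 341, Zfp524 79 and 125, Zfp865 740 and 646, Zfp784 59 and 75 and Zfp580 122 and 170. The intervals of Zfp579, Zfp524 and Zfp580 were above 0, and after the length correction all 6 values were above 0 with a median of 0.31. The 7 Zfp genes just before Trim28, chr7:12412549-12985717, had a median of 0.10 and no calls. In it Zfp329 had 204 and 123 reads (-0.62) and its neighbour Zfp110 270 and 329 (0.39), with intervals on opposite sides of 0. After the length correction they were at -0.28 and 0.43, with adjusted p of 0.18 and 0.0014 in the exact binomial test.

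**Figure D4:**
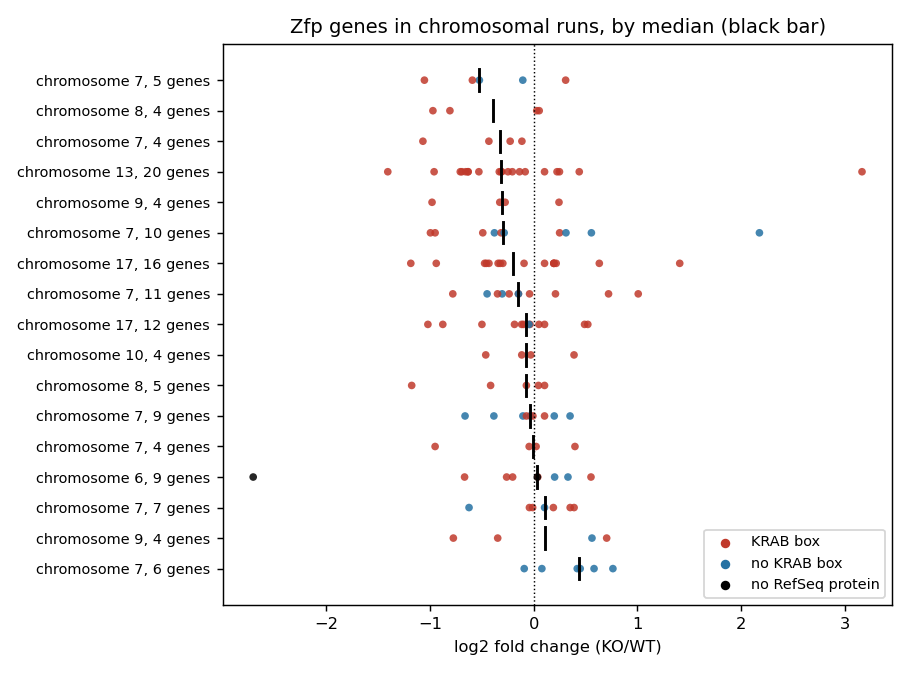
Log2 fold change (KO/WT, x axis) of each Zfp gene in the 17 chromosomal runs (rows, from the lowest to the highest median), with KRAB genes in red, genes without the box in blue, a gene without a RefSeq protein in black and the median of each run as a bar. Values of both signs occur in most runs, and the medians go from -0.52 to 0.43.

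The proteins through which KRAB zinc fingers act were mostly within 2-fold. Of 36 such genes 29 were tested, 2 were lower (Dnmt3a with 15 and 4 reads and Pphln1 with 20 and 6, 6.90% against 5.53% of all genes) and 0 higher, with a median log2 fold change of 0.10. Cbx3, which encodes an HP1 protein, had 1576 and 1902 reads (0.38), Chd4 of NuRD had 9255 and 7370 (-0.22), and Setdb1, the methyltransferase of the complex, had 5 and 8. Dnmt1, the maintenance DNA methyltransferase of dividing cells, had 8 and 0 reads, and its partner Uhrf1 and the methyltransferase gene Ehmt2 were listed in neither library. Among all genes tested the median WT level was 12.5 RPKM for genes with 1 curated RefSeq transcript and 3.86 RPKM for those with 4 or more, and the part of counting in such low values was not tested. For Zfp genes these medians were 3.24 and 4.52 RPKM.

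Imprinted genes, whose marks depend in embryos on Zfp57, Zfp445 and TRIM28, were followed as targets. Of 50 symbols, 24 had reads and 16 were tested, of which 2 (12.5%, against 5.53% of all genes) were lower, 1 (6.25%, against 2.57%) was higher and the median log2 fold change was -0.19. Plagl1, a zinc finger gene itself, had 56 and 25 reads (-1.04) and Ube3a 15 and 1. With far more reads and under 2-fold, Igf2r had 2245 and 1160 (-0.85, from -0.95 to -0.75) and Kcnq1ot1 1126 and 579 (-0.85), with intervals below 0. The values of imprinted genes given here are not corrected for transcript length. Peg13, a paternally expressed RNA, rose from 35 reads in WT to 84 in KO (log2 fold change 1.36, from 0.78 to 1.98). The calls among imprinted genes went in both directions, while Zfp445, the imprint guard that was detected, was within 2-fold.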

How the data were processed

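RNA-seq was done on 1 WT and 1 KO library, and the ChIP samples are not analysed here. Per the paper, reads were mapped to mm10 with SOAP2. The authors deposited, gene by gene, the counts of reads assigned to it uniquely, not normalized. The counting program's settings, annotation and strand are not given in the sources used here, and genes without reads are not listed, so they were taken as 0.

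Counts were divided by the library totals, so that 3 reads, taken as the floor, are 0.451 CPM (WT) and 0.485 CPM (KO). Log2 fold changes had 0.5 added to each count. A two-sided exact binomial test with Benjamini-Hochberg adjustment (SciPy 1.17.1) was run on the 10881 genes whose reads summed to 10 or more. Its check on simulated counts held counting error but no variation between cultures, so it does not show how the test fares with such variation. Calls needed an adjusted p below 0.05 and a 2-fold difference. Intervals are exact (Clopper-Pearson, 95%).

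RefSeq on GRCm38.p6 gave positions and proteins, translated from the coding exons and searched for the KRAB A box and C2H2 fingers. Of the Zfp genes 265 matched by symbol and 3 by an older symbol. GENCODE M21 gave the length, GC content and shared 50-base words of the longest transcript. RPKM used that length.

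Genes named were Trim28, the 8 largest falls and rises among called Zfp genes that reach 20 reads in the higher library, the 8 with the most reads, a list of known roles, and the runs with the lowest and highest median. The members, lists and rule were chosen with earlier results of these data known. Alternatives used edgeR 4.0.16 (TMM factors and its exact test with assumed variation), upper quartile scaling, size factors of DESeq2 1.42.0, other filters, folds and KRAB limits, and loess curves (statsmodels 0.14.6, span 0.3). Scripts ran in Python 3.11.15 and R 4.3.3.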

Additional observations from a re-analysis of the deposited data

How the results depend on the processing

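The median log2 fold changes of all Zfp genes, of KRAB genes and of those without the box stayed below 0 under every alternative that changes them, from -0.23 to -0.11, from -0.25 to -0.10 and from -0.24 to -0.093. They moved by over 1.5 times with the GC correction (to -0.11 for all Zfp genes and -0.10 for KRAB genes) and with the length correction (to -0.093 without the box). Counts of calls, given as lower and higher, stayed within 1.5 times of 12 and 3 (all Zfp), 8 and 2 (KRAB) and 3 and 1 (no box) under TMM, DESeq2 size factors, upper quartile scaling and KRAB limits of 11 or 9 positions. With the length correction 7 Zfp genes (2.61%, against 4.32% of all genes) and 5 KRAB genes were lower, and 2 without the box higher. With 5 added to each count, and with the GC correction, 5 KRAB genes were lower. In both, 3.36% of Zfp genes were lower, against 4.93% and 5.08% of all genes. With at least 10 reads in each library, or at least 50 over both, 0 genes of any class were higher, beside 184 of 9447 and 167 of 8654 genes of any kind. With every gene of at least 1 read, 0 without the box were higher, beside 291 of 13704 genes. Without genes that share words, 1 KRAB gene was higher. At a fold of 1.5 there were 34 and 7 (all), 19 and 4 (KRAB) and 14 and 3 (no box). The lower calls were 12.7% of Zfp genes, against 11.5% of all genes, of which 1248 were lower and 764 higher. By 2-fold size alone there were 21 and 6 (all), 4 KRAB genes higher, and 9 and 2 (no box). Of all genes, 7.94% were lower and 3.75% higher by that limit, against 7.84% and 2.24% of Zfp genes. With edgeR's exact test and variation of 0.2 there were 2 and 0 (all), 2 and 0 (KRAB) and 0 and 0 (no box). The lower calls were 0.746% of Zfp genes, against 1.20% of all genes, of which 131 were lower and 65 higher. At a variation of 0.4 there were none of any class in either direction, 0 and 0, beside 9 lower and 7 higher of all genes. Variation between cultures was assumed there and not measured. Where a count moved, the cause was not tested, save that filters leave fewer genes.

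Of the 46 genes named by the rule with enough reads, calls were lost by 2 each (Zfp607 and Zfp719) with 5 added, the GC and the length correction, by 7 at a variation of 0.2 and by 8 at 0.4. The sign changed for 6 (Zfp106, Zfp148, Zfp318, Zfp609, Zfp865 and Zfp871) with the length correction and for 2 (Zfp628 and Zfp932) with the GC correction, none of them called. No paired analysis was possible because each genotype has 1 library. Depth limits much of the family, since the counting interval spans more than 2-fold in 133 of the 268 genes, none of which had more than 151 reads.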
